A study of Homo sapiens with 2 samples.

Results

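The genes described here encode the matrix metalloproteinases (MMP), the ADAM and ADAMTS metalloproteinases and the tissue inhibitors of metalloproteinases (TIMP). They were taken as the protein-coding genes with a symbol of MMP, ADAM, ADAMTS or TIMP followed by a number. That rule found 67 of the 40392 genes in the tables. MMP24OS, a gene on the strand opposite to MMP24 that is not a protease, was set aside, which left 66 members: 27 membrane-anchored proteases, 35 secreted proteases and 4 inhibitors.

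RNA sequencing was carried out on total RNA from KYSE30, an established line of esophageal squamous cell carcinoma. The RHCG library came from cells stably transfected with a vector for human RHCG, an ammonia transporter of normal esophageal epithelium. The mock library came from cells that stably carried the pIRES2-EGFP vector. There was 1 library per group, so there is no spread between replicates, no test was possible, and each difference below is between these 2 libraries. The labels do not say whether the transfectants were single clones or pools.

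Levels are in RPKM, reads per kilobase of transcript scaled to the depth of the library. At 1 RPKM, each kilobase of transcript rested on about 22.1 reads in the RHCG library and 18.9 in the mock library. Genes listed above 1 RPKM numbered 12229 in the RHCG library and 12494 in the mock library. All others were listed at 0, which may mean 1 RPKM or less, no reads, or a gene that was not counted, since HSPH1 and GLUL, which most cells express, were also at 0 in both libraries. RHCG itself was at 413 RPKM in the RHCG library and listed at 0 in the mock library. Of 9 squamous epithelial markers 8 were listed above 0, with summed levels of 420 RPKM in the RHCG library and 811 RPKM in the mock library, and KRT5 was at 0 in both. By the 2-fold rule given below, KRT6A (3.51 RPKM in the RHCG library and 38.8 RPKM in the mock library) and KRT13 (164 RPKM in the RHCG library and 407 RPKM in the mock library) were lower, and the part of this in the differences between proteases was not tested. Of 10 fibroblast markers, COL1A1 was listed in both libraries and COL3A1 in the mock library alone, with DCN, LUM, PDGFRA and PDGFRB at 0, and their summed levels were 1.44 RPKM in the RHCG library and 2.45 RPKM in the mock library. Of 8 leukocyte markers CD68 was the one listed, at 8.89 RPKM in the RHCG library and 15.4 RPKM in the mock library, with PTPRC at 0, and all 6 endothelial markers were at 0.

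These proteases hold a zinc ion in their active site and cut proteins mostly outside the cell. Soluble MMPs degrade collagen, gelatin and other matrix proteins, and membrane-type MMPs do so at the cell surface. ADAMs mostly release the outer parts of membrane proteins, among them growth factors, adhesion molecules and Notch, while ADAMTS enzymes act on proteoglycans, procollagens and von Willebrand factor. TIMPs block the active sites. In squamous carcinomas much of the MMP activity is known to come from stromal cells, which a cell line lacks.

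MMP1, the interstitial collagenase that the study followed, was listed at 0 in both libraries. A level of 1 RPKM would have corresponded to about 43 reads of its transcript in the RHCG library and about 37 in the mock library. Since a value at 0 may also stand for a gene that was not counted, no bound on MMP1 can be set, and no ratio is given. The other collagenases, MMP8 and MMP13, were also at 0 in both libraries, as were the gelatinase MMP9, the stromelysin MMP3, the matrilysins MMP7 and MMP26, the macrophage elastase MMP12, the enamel protease MMP20, and MMP19, MMP21 and MMP27.

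Of the 66 members, 23 were listed above 0 in at least 1 library, 22 in each library and 21 in both. The share of 34.8% stands beside 59.7% of the 19158 protein-coding genes in the tables (57.3% in the RHCG library and 58.5% in the mock library). Among membrane-anchored proteases 14 of 27 (51.9%) were listed, among secreted proteases 6 of 35 (17.1%) and among inhibitors 3 of 4 (75.0%). ADAMTS genes were the sparsest family, with ADAMTS1 and ADAMTS15 listed out of 19. All 3 procollagen N-proteinases (ADAMTS2, ADAMTS3 and ADAMTS14) and the von Willebrand factor protease ADAMTS13 were at 0 in both libraries. So were the proteoglycan-cutting ADAMTS4, ADAMTS5, ADAMTS8, ADAMTS9 and ADAMTS20, and ADAMTS6, ADAMTS7, ADAMTS10, ADAMTS12, ADAMTS16, ADAMTS17, ADAMTS18 and ADAMTS19. ADAMs were listed for 9 of 20 genes, 6 of the 12 with a catalytic site and 3 of the 8 that lack one. Most ADAMs at 0 in both libraries are genes of the male reproductive tract, namely ADAM2, ADAM7, ADAM18, ADAM20, ADAM21, ADAM29, ADAM30 and ADAM32. The rest were ADAM12, ADAM28 and ADAM33.

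**Figure D1:**
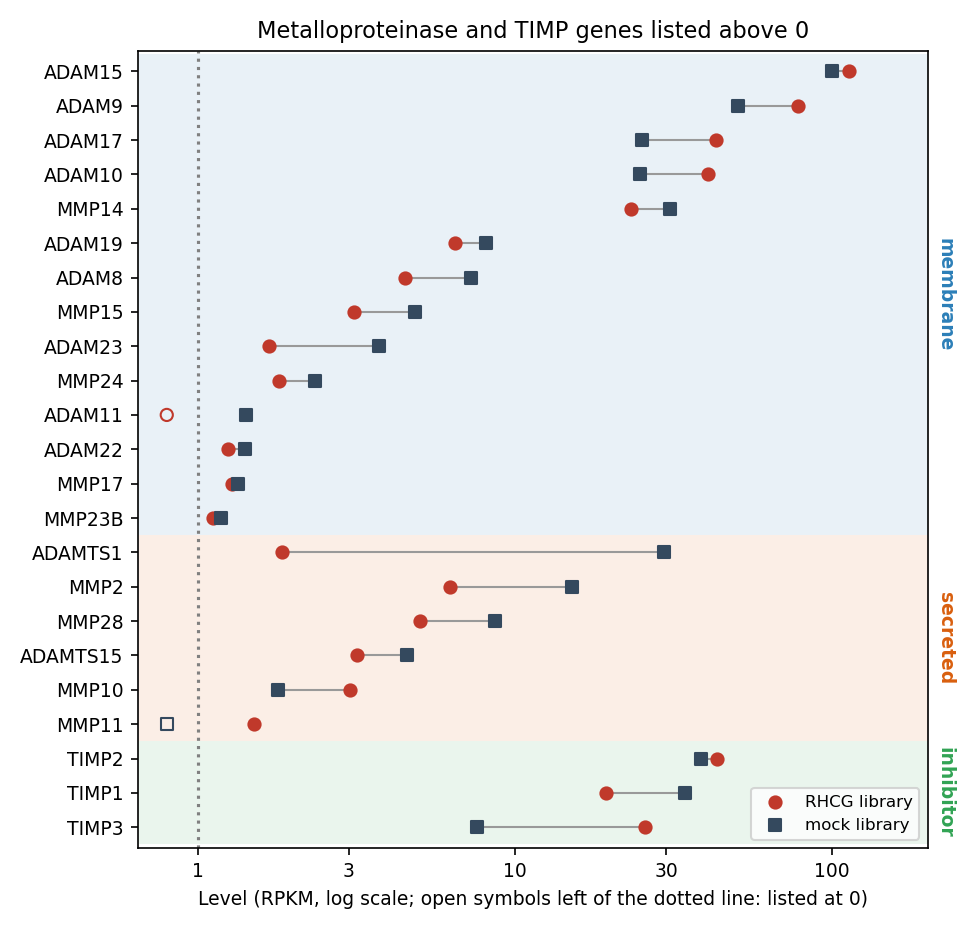
Levels in RPKM (horizontal log axis) of the 23 members listed above 0 in at least 1 library, with the RHCG library as circles and the mock library as squares (open where listed at 0), grouped by site of action. ADAM15 was the most abundant member in both libraries, and ADAMTS1 and TIMP3 have the widest gaps, in opposite directions.

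MMP1 and MMP10 belong to a cluster of 9 MMP genes on chromosome 11 (MMP7, MMP20, MMP27, MMP8, MMP10, MMP1, MMP3, MMP12 and MMP13), of which MMP10 alone was listed above 0. The promoter sequences of MMP10 and MMP7 are set beside those of more abundant members. RefSeq promoter windows (GRCh38.p14, the 250 bases before the start of the gene) were matched for 39 of the 66 members. None was matched for MMP1, MMP3, MMP12 and MMP13 of the cluster, or for MMP2 and ADAMTS1. Windows were searched for the AP-1 motif TGANTCA, which reads the same on both strands, for TATAAA or its reverse complement TTTATA, and for the GC box GGGCGG or its reverse complement CCGCCC. MMP10 and MMP7 are printed as the listed gene of the cluster and a gene of it at 0, with the AP-1 motif and the TATA box in capitals. TIMP3, TIMP1, ADAM10 and ADAM17 are printed as inhibitors and sheddases with levels above 7 RPKM in both libraries, with GC boxes in capitals. In the 6 windows shown, no motif overlapped another.
MMP10 (chr11:102780629-102780878, minus strand): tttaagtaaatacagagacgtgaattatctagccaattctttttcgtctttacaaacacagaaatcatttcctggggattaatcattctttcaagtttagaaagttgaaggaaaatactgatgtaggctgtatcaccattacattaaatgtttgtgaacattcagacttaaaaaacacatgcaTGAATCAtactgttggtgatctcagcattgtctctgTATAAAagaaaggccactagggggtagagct
MMP7 (chr11:102530748-102530997, minus strand): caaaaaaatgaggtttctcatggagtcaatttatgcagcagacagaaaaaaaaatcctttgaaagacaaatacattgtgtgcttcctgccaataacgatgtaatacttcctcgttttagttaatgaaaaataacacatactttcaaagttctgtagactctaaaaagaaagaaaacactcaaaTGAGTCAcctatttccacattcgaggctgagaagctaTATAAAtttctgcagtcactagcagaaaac
TIMP3 (chr22:32801455-32801704, plus strand): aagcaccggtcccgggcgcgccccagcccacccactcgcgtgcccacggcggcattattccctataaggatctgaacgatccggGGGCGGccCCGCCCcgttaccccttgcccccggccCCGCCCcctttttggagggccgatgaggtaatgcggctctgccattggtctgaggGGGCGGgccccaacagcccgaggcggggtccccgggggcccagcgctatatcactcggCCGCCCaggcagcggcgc
TIMP1 (chrX:47582186-47582435, plus strand): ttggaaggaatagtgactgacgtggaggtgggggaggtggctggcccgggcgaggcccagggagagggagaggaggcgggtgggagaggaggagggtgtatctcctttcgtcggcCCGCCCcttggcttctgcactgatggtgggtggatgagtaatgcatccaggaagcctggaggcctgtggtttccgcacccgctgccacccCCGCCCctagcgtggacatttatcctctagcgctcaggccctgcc
ADAM10 (chr15:58749708-58749957, minus strand): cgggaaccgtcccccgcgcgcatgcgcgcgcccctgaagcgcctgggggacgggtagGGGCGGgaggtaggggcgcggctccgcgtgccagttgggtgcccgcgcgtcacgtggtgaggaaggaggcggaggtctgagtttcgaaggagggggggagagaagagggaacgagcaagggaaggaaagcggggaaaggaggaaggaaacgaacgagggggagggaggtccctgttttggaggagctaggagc
ADAM17 (chr2:9555831-9556080, minus strand): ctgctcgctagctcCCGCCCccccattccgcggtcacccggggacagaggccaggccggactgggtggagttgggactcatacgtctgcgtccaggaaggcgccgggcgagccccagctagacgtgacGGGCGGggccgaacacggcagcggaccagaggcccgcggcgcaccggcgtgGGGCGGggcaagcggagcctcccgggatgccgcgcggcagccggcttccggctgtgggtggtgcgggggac

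The AP-1 motif stood at the same place in both MMP windows, 67 to 61 bases before the start. A TATA box lay between this motif and the start, 31 to 26 bases before the start in MMP10 and 30 to 25 in MMP7. Of the 5 cluster genes with a window, 3 held the AP-1 motif and 4 a TATA box, against 5.04% and 9.23% of 15843 protein-coding windows, and 0 held a GC box, against 56.0%. The MMP7 window was 33.6% G and C with 3 CpG dinucleotides, and the MMP10 window 34.4% with 2. The TIMP3 window was 72.4% G and C with 26 CpG, and the ADAM17 window 75.6% with 31. The ADAM10 window was 68.4% G and C with 25 CpG, and the TIMP1 window 64.8% with 12, below the median of 17 over all protein-coding windows. MMP14, at over 20 RPKM in both libraries, had 7 CpG, so not all abundant members had CpG-rich windows. Over the 15 members listed in at least 1 library the median was 25 CpG, beside 21 over all listed protein-coding genes. Among the 24 members at 0 in both libraries, 12 ADAMTS genes had a median of 23 CpG, and 11 held a GC box, whereas the 5 ADAM genes had a median of 4 CpG. These matches describe letters in a window and not bound sites.

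**Figure D2:**
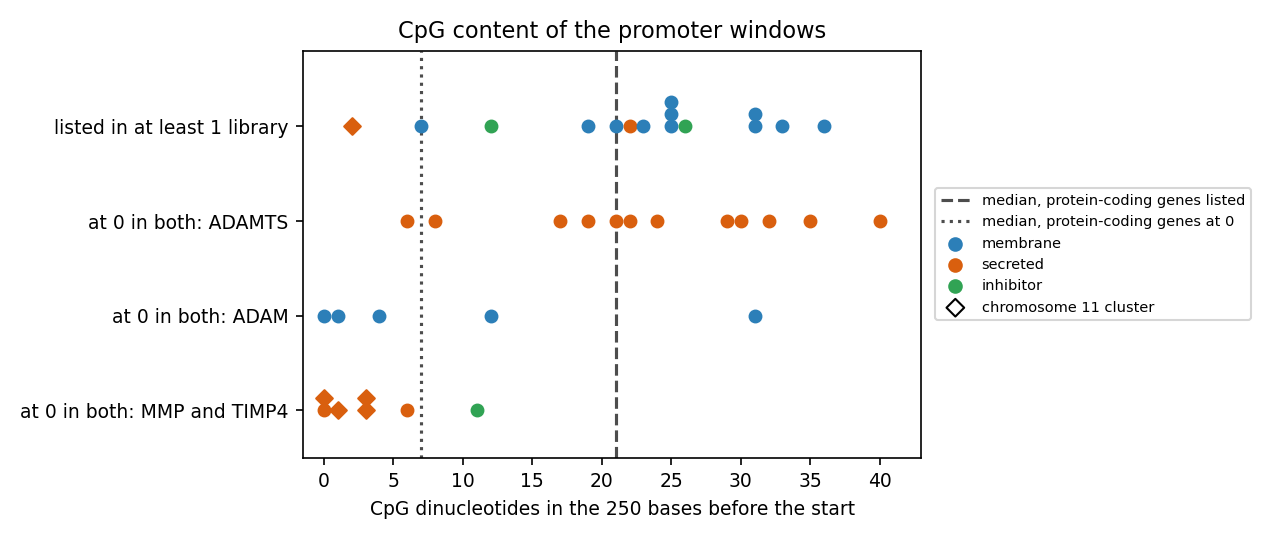
Number of CpG dinucleotides (horizontal axis) in the 250 bases before the start for 39 members, by whether the gene was listed, with dashed and dotted lines for the medians of all protein-coding genes listed (21) and at 0 in both libraries (7). Most listed members lie at 19 or more, ADAMTS genes at 0 overlap them, and cluster genes (diamonds) have 3 or fewer.

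A gene was called by a 2-fold rule, on log2 ratios (RHCG over mock) taken after 1 RPKM was added to each value: higher at 1 and above, lower at −1 and below. TIMP3 was higher in the RHCG library, and ADAMTS1 and MMP2 were lower. These were 1 higher and 2 lower of the 23 members listed in at least 1 library, against 2.74% higher and 3.30% lower of all 12857 genes so listed. Over the 21 members listed in both libraries the log2 ratios ran from −3.42 to 1.63, with a median of −0.25 beside 0.01 over the 11866 genes listed in both. Of these members 7 lay above 0 and 14 below, beside 50.6% above 0 and 49.4% below among all genes listed in both libraries. The counting interval of the ratio excluded 1 for 18 of the 21, all but ADAM22, MMP17 and MMP23B. It also did so for 30 of the 33 listed partner genes described below. The share over all genes was not counted, so whether 18 of 21 is more or less than usual is not known. The median was −0.10 for 13 membrane-anchored proteases, −0.68 for 5 secreted proteases and 0.16 for 3 inhibitors. The membrane median turned to 0.18 among the 7 members averaging 5 RPKM or more and to 0.01 with the medians of neighbouring genes taken away, so it gives no direction. The secreted median was −1.16 among the 3 members averaging 5 RPKM or more, and the inhibitor median 0.43 with the neighbours taken away. Of those 3, ADAMTS1 passed only through the mock library (1.85 RPKM in the RHCG library and 29.6 RPKM in the mock library). The lower secreted median thus comes partly from the filter. No test of the differences between groups was possible. In libraries of whole cultures, fewer cells of a type and less RNA per cell cannot be told apart.

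**Figure D3:**
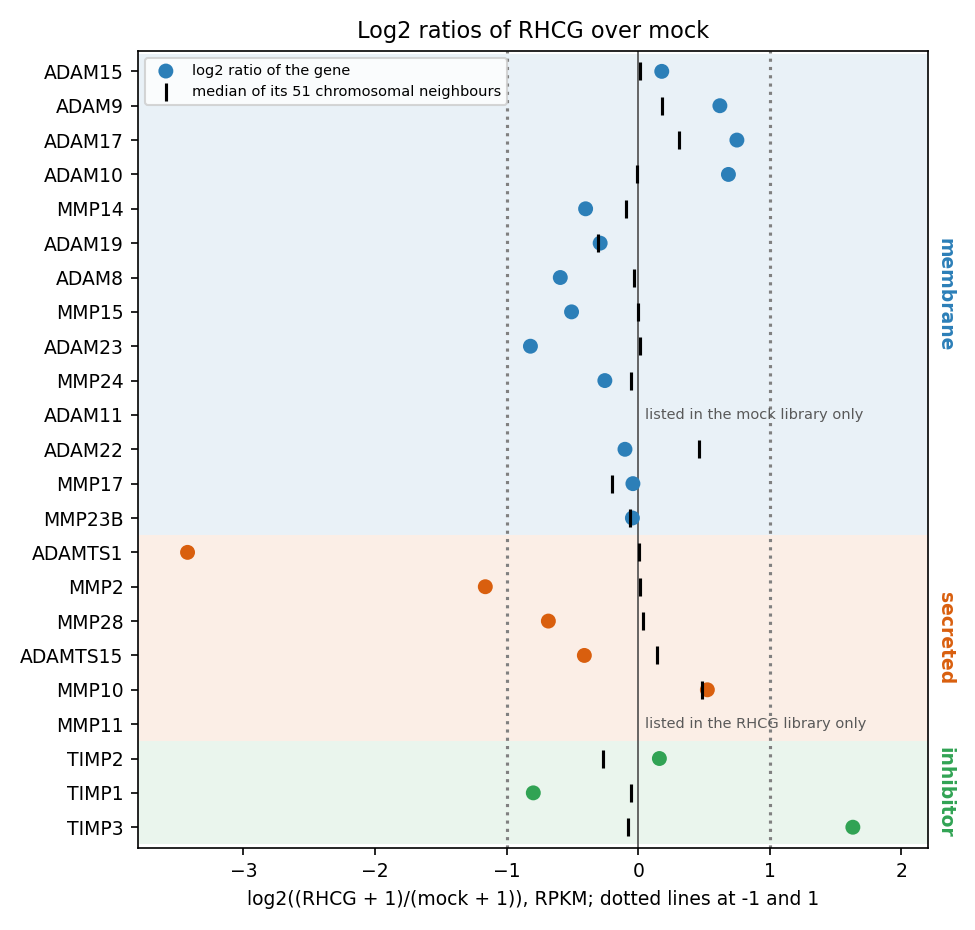
Log2 ratios of RHCG over mock, with 1 RPKM added to each value, for the 21 members listed in both libraries (coloured points), with the median ratio of the 51 nearest measured protein-coding genes on the same chromosome (black ticks). ADAMTS1 and MMP2 lie left of −1 and TIMP3 right of 1, and the neighbours of these 3 genes lie near 0, while MMP10 lies on the value of its neighbours.

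Among secreted proteases listed in both libraries, ADAMTS1 had the ratio farthest from 1. ADAMTS1 (Entrez gene 9510, chromosome 21), a secreted protease that cuts the proteoglycans versican and aggrecan, was at 1.85 RPKM in the RHCG library and 29.6 RPKM in the mock library. These levels rest on about 212 reads in the RHCG library and 2912 in the mock library. It was 16.0-fold lower in the RHCG library, a ratio of 0.0625 with an approximate 95% exact counting interval of 0.0541 to 0.0719. Among protein-coding genes listed in the same library it stood at percentile 8.6 in the RHCG library and 78.5 in the mock library. The 51 nearest measured genes had a median log2 ratio of 0.01. Its related neighbour on chromosome 21, the aggrecanase ADAMTS5, was at 0 in both libraries. ADAMTS15, another proteoglycan-cutting member, was at 3.19 RPKM in the RHCG library and 4.56 RPKM in the mock library and did not pass 2-fold. Of the proteoglycan substrates versican (VCAN), aggrecan (ACAN), neurocan (NCAN) and brevican (BCAN), BCAN alone was listed above 0, at 8.03 RPKM in the RHCG library and 10.1 RPKM in the mock library.

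MMP2, the gelatinase that cuts denatured and basement membrane collagen, was at 6.24 RPKM in the RHCG library and 15.2 RPKM in the mock library. It was 2.44-fold lower (log2 ratio −1.16), a ratio of 0.411 with a counting interval of 0.369 to 0.456. MMP14, the membrane-type MMP that activates pro-MMP2 together with TIMP2, was at 23.2 RPKM in the RHCG library and 30.9 RPKM in the mock library, a ratio of 0.7502 (interval 0.705 to 0.798). The level of MMP2 was 0.269 of that of MMP14 in the RHCG library and 0.492 of it in the mock library. TIMP2, which has both inhibitory and activating roles towards MMP2, was at 43.2 RPKM in the RHCG library and 38.5 RPKM in the mock library. Of these 3 partners, the gelatinase was past 2-fold between the libraries, and its activator and TIMP2 were within it.

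The remaining soluble MMPs that were listed stayed under 10 RPKM in both libraries. MMP28, epilysin, an MMP of keratinocytes, was at 5.01 RPKM in the RHCG library and 8.64 RPKM in the mock library, a ratio of 0.579. MMP10, stromelysin-2, was at 3.02 RPKM in the RHCG library and 1.79 RPKM in the mock library, a ratio of 1.68 (interval 1.22 to 2.32). These levels rest on about 117 reads in the RHCG library and 60 in the mock library. Its sequence is close to that of MMP3, so reads of these genes could have been exchanged. MMP11, stromelysin-3, was at 1.504 RPKM in the RHCG library and listed at 0 in the mock library.

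On chromosome 11, most of the listed genes around the MMP cluster were at higher levels in the RHCG library. Of 20 flanking protein-coding genes, 10 on each side, 8 were listed in at least 1 library. The log2 ratios of 7 of these 8 lay above 0, beside 50.6% of all genes listed in both libraries, and the median of the 8 was 0.73. BIRC3 and CARD18, listed in the RHCG library alone, depend on the 1 RPKM set for a 0. CASP4, an inflammatory caspase, was at 45.4 RPKM in the RHCG library and 24.04 RPKM in the mock library. DCUN1D5 was at 7.32 RPKM in the RHCG library and 2.96 RPKM in the mock library. The transcriptional co-activator YAP1 was at 26.3 RPKM in the RHCG library and 16.6 RPKM in the mock library. With the median of its 51 nearest genes (0.48) taken away, the log2 ratio of MMP10 of 0.53 was 0.04. The ratio of MMP10 was thus close to the median of its stretch of the chromosome.

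**Figure D4:**
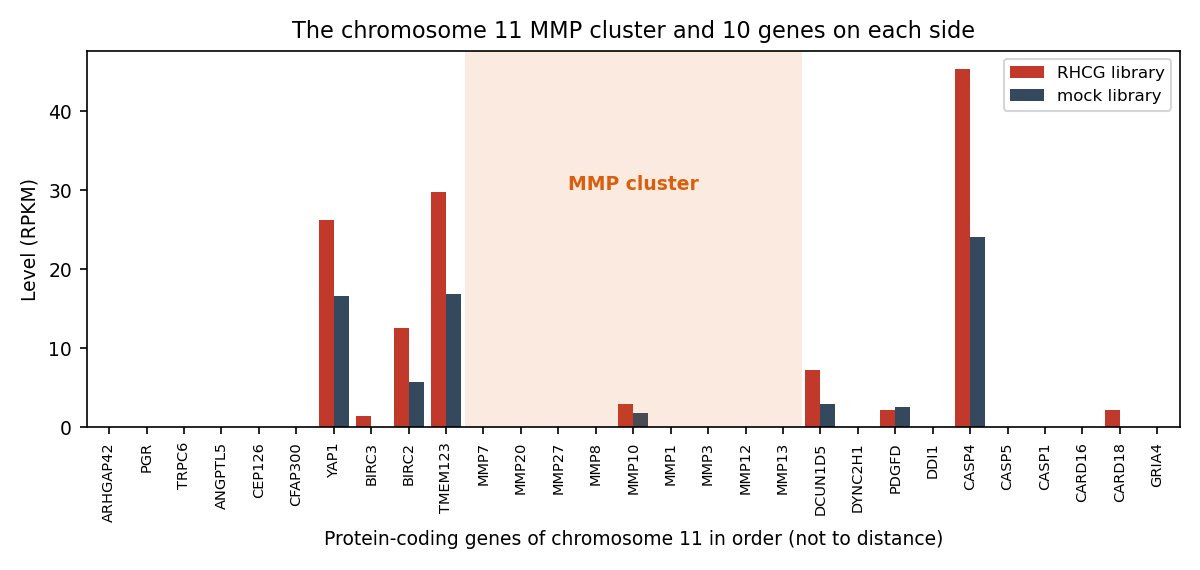
Levels in RPKM (vertical axis, from 0) of the 9 MMP genes of the chromosome 11 cluster (shaded) and 10 protein-coding genes on each side, in chromosomal order, with the RHCG library to the left of the mock library. MMP10 is the 1 cluster gene with a bar, and YAP1, BIRC2, TMEM123, DCUN1D5 and CASP4 around it are higher in the RHCG library.

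Among the membrane-anchored proteases no gene was called by the 2-fold rule. ADAM9, ADAM10, ADAM15 and ADAM17, the most abundant ADAMs, had ratios above 1, and the other 9 members listed in both libraries had ratios below 1. ADAM17, the sheddase of TNF and of several EGF receptor ligands, was at 43.1 RPKM in the RHCG library and 25.2 RPKM in the mock library, a ratio of 1.71 (interval 1.62 to 1.80). ADAM10, the sheddase of Notch, E-cadherin and other EGF receptor ligands, was at 40.5 RPKM in the RHCG library and 24.8 RPKM in the mock library, a ratio of 1.63 (interval 1.58 to 1.69). ADAM9 was at 78.2 RPKM in the RHCG library and 50.5 RPKM in the mock library, a ratio of 1.55. All 3 passed 1.5-fold, as did 11.3% of all measured genes in that direction. With the median of neighbouring genes taken away, the log2 ratio was 0.69 for ADAM10, 0.44 for ADAM17 and 0.44 for ADAM9, so that ADAM10 alone still passed 1.5-fold. Exons of ADAM17 share 12.3% of their bases with IAH1 on the other strand. Whether reads were counted by strand is not given in the sources used here.

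ADAM15, which carries an integrin-binding motif, was at 113 RPKM in the RHCG library and 99.9 RPKM in the mock library, above percentile 94 of listed protein-coding genes in both. ADAM15, ADAM9, ADAM17 and ADAM10 together made up 95.2% of the summed ADAM level in the RHCG library and 90.1% in the mock library. ADAM8, a sheddase best known from leukocytes, was at 4.50 RPKM in the RHCG library and 7.29 RPKM in the mock library, a ratio of 0.617. ADAM19, which can shed neuregulin, was at 6.46 RPKM in the RHCG library and 8.12 RPKM in the mock library, and its log2 ratio of −0.29 was close to the −0.30 of its neighbours. The listed ADAMs without a catalytic site, ADAM11, ADAM22 and ADAM23, are adhesion proteins of the nervous system and stayed under 5 RPKM. ADAM23 was at 1.68 RPKM in the RHCG library and 3.73 RPKM in the mock library, a ratio of 0.451 (interval 0.384 to 0.530). Its log2 ratio was −0.82, short of 2-fold with 1 RPKM added, and past it with 0.1 RPKM added. ADAM22 was at 1.25 RPKM in the RHCG library and 1.41 RPKM in the mock library, and ADAM11 was listed at 0 in the RHCG library and at 1.42 RPKM in the mock library.

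Of the 6 membrane-type MMPs, 4 were listed, and all 4 had ratios below 1. After MMP14 came MMP15, at 3.12 RPKM in the RHCG library and 4.85 RPKM in the mock library. MMP24 was at 1.81 RPKM in the RHCG library and 2.35 RPKM in the mock library. MMP24OS, whose exons cover 18.1% of those of MMP24, was at 15.2 RPKM in the RHCG library and 13.4 RPKM in the mock library, so the reads of MMP24 may include some of its partner. The GPI-anchored MMP17, at 1.28 RPKM in the RHCG library and 1.34 RPKM in the mock library, did not differ beyond counting error (interval 0.667 to 1.37). MMP23B was at 1.12 RPKM in the RHCG library and 1.18 RPKM in the mock library, and shares its sequence with the pseudogene MMP23A, which was listed at 0 in the RHCG library and at 1.60 RPKM in the mock library. MMP16 and MMP25 were at 0 in both libraries.

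The inhibitors differed in both directions. TIMP3 (Entrez gene 7078, chromosome 22), which stays bound to the matrix and inhibits ADAM17, ADAM10 and several ADAMTS enzymes as well as MMPs, was at 25.7 RPKM in the RHCG library and 7.62 RPKM in the mock library. It was 3.37-fold higher (log2 ratio 1.63, interval of the ratio 3.10 to 3.68), from about 2611 reads in the RHCG library and 664 in the mock library. TIMP1, a soluble inhibitor that also acts as a growth factor, was at 19.4 RPKM in the RHCG library and 34.4 RPKM in the mock library, a ratio of 0.563 (interval 0.494 to 0.642). TIMP2 had a ratio of 1.12. TIMP4 was at 0 in both libraries. The medians of neighbouring genes were −0.07 for TIMP3, −0.05 for TIMP1 and −0.27 for TIMP2. The makeup of the TIMP pool therefore differed: TIMP3 was 29.1% of the summed TIMP level in the RHCG library and 9.46% in the mock library, and TIMP1 was 22.0% in the RHCG library and 42.7% in the mock library.

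Summed over the members, the secreted proteases were at a lower level in the RHCG library, and the membrane-anchored proteases and inhibitors at slightly higher ones. The membrane-anchored proteases summed to 319 RPKM in the RHCG library and 263 RPKM in the mock library, a ratio of 1.21. The secreted proteases summed to 20.8 RPKM in the RHCG library and 59.8 RPKM in the mock library, a ratio of 0.348. Without ADAMTS1 the secreted sums were 18.96 RPKM in the RHCG library and 30.2 RPKM in the mock library. The inhibitors summed to 88.3 RPKM in the RHCG library and 80.6 RPKM in the mock library, a ratio of 1.10. The summed TIMP level was 5.60 times that of the soluble MMPs in the RHCG library and 3.14 times in the mock library. Over all proteases, membrane-anchored ones included, it was 0.259 times in the RHCG library and 0.2496 times in the mock library. Such sums are of RNA and follow the few most abundant genes, with members listed at 0 counted as 0. Of 16 soluble MMPs, 12 were at 0 in both libraries, among them MMP1, on which no bound can be set. The secreted and soluble MMP sums, and ratios to them, therefore hold for the listed members only.

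**Figure D5:**
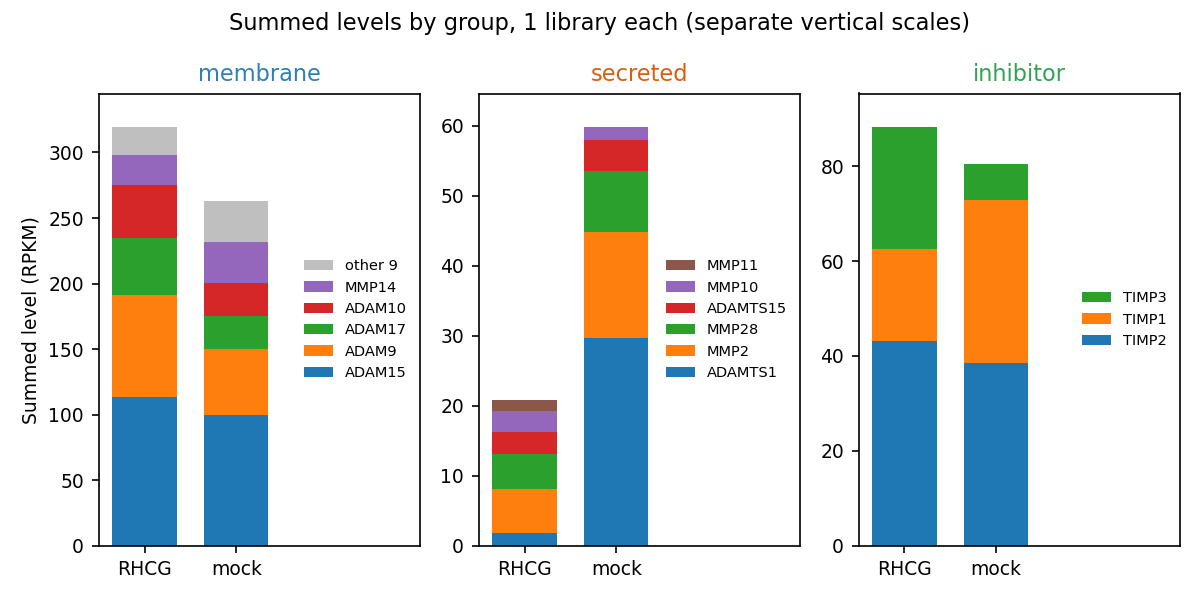
Summed levels in RPKM (vertical axes from 0, a separate scale for each group) of membrane-anchored proteases, secreted proteases and inhibitors, with the RHCG library left of the mock library and colours for the leading genes. The secreted sum was 20.8 RPKM in the RHCG library and 59.8 RPKM in the mock library, and ADAMTS1 was 49.5% of the mock sum.

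Partners of these proteases were followed in a list of 51 genes, of which 33 were listed above 0, each in both libraries. The list was written with earlier results of these data known, so its counts are no test of the partners. By the 2-fold rule 5 of the 33 were higher and 0 lower in the RHCG library, beside 2.74% and 3.30% of all measured genes, and the median log2 ratio of the 33 was 0.15. With the median of neighbouring genes taken away, HBEGF (1.72) and ADAMTSL3 (1.07) still passed 2-fold, 2 in place of 5. Of the 5, 3 were ligands of the EGF receptor that sheddases release from the membrane. HBEGF was at 24.6 RPKM in the RHCG library and 8.85 RPKM in the mock library, a 2.78-fold difference. TGFA was at 47.1 RPKM in the RHCG library and 22.1 RPKM in the mock library, and EREG at 10.8 RPKM in the RHCG library and 4.65 RPKM in the mock library. The log2 ratios of TGFA (1.06) and EREG (1.06) were 0.93 and 0.98 with their neighbours' medians taken away, short of 2-fold. AREG, the most abundant ligand, was at 130 RPKM in the RHCG library and 74.2 RPKM in the mock library, a ratio of 1.75, and EPGN had a ratio of 1.30. The summed level of the ligands was 219 RPKM in the RHCG library and 115 RPKM in the mock library. The other 9 listed shed substrates centred on a log2 ratio of −0.08 (median), with 0 past 2-fold. Their log2 ratios ran from −0.75 for L1CAM, which was past 1.5-fold, to 0.38 for TNFRSF1A. Among them APP, the amyloid precursor, was at 226 RPKM in the RHCG library and 278 RPKM in the mock library. CDH1, E-cadherin, was at 84.7 RPKM in the RHCG library and 76.5 RPKM in the mock library, and SDC1, syndecan-1, at 244 RPKM in the RHCG library and 258 RPKM in the mock library. Of the shed substrates, BTC, TNF and TNFRSF1B were at 0 in both libraries.

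Among the cofactors that carry the sheddases to the cell surface, RHBDF2 (iRhom2), a partner of ADAM17, was at 27.2 RPKM in the RHCG library and 15.6 RPKM in the mock library. RHBDF1 (iRhom1) was at 24.3 RPKM in the RHCG library and 21.4 RPKM in the mock library, and their partner FRMD8 at 20.5 RPKM in the RHCG library and 28.7 RPKM in the mock library. TSPAN33, a tetraspanin partner of ADAM10, was higher by the 2-fold rule, at 7.70 RPKM in the RHCG library and 3.21 RPKM in the mock library. Its log2 ratio of 1.05 was 0.65 with the median of its neighbours taken away. The more abundant partners of ADAM10, TSPAN15 (83.8 RPKM in the RHCG library and 78.6 RPKM in the mock library) and TSPAN17 (70.1 RPKM in the RHCG library and 75.2 RPKM in the mock library), had ratios of 1.07 and 0.933. FURIN, the convertase that removes the prodomain of ADAMs, ADAMTSs and membrane-type MMPs, was at 46.0 RPKM in the RHCG library and 36.9 RPKM in the mock library. CD44, the hyaluronan receptor that anchors MMPs at the cell surface, was at 50.95 RPKM in the RHCG library and 102 RPKM in the mock library, a log2 ratio of −0.99 just short of the rule, which it met with 0.1 RPKM added or with trimmed mean scaling. BSG, the surface protein that induces MMPs in neighbouring cells, was at 180 RPKM in the RHCG library and 211 RPKM in the mock library. RECK and A2M, other inhibitors of MMPs, were at 0 in both libraries, and TFPI2 was at 9.80 RPKM in the RHCG library and 9.64 RPKM in the mock library.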

How the data were processed

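Ribosomal RNA was removed from total RNA and barcoded libraries were made with an Ion Total RNA-Seq kit, per the labels' protocols. The authors deposited 1 table per library whose column is headed RPKM but holds log2 RPKM, as its range shows, with no value below 0. Build hg19 and bedtools 2.25.0 are named in the submitters' processing notes. Aligner, counting and use of strand: not given in the sources used here.

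Values were unlogged, rows with a copy suffix (112 of 40448) were summed by gene, and Entrez numbers were matched to RefSeq symbols for 38047 of 40392 genes. Ratios kept the deposited scaling, added 1 RPKM, and set genes listed at 0 to 1 RPKM when the other library listed them. Neighbours were the 51 nearest measured protein-coding genes of the chromosome. Depth was estimated from small RNA genes, whose RPKM times length fell within 0.01 of whole reads for 66 of 173 values under 20 reads in the RHCG library and 47 of 182 in the mock library. The constant was searched between 40 and 60, a range set with earlier estimates known; a wider search gave the RHCG library a competing lower value. Read numbers and the exact (Clopper-Pearson) 95% intervals of plain RPKM ratios are therefore approximate and cover counting error only. They use the longest GENCODE 29 transcript paired with a RefSeq mRNA (65 of 66 members), which replaced exon unions after first values had been seen.

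Members, groups, partners and markers were chosen with earlier results of these data known. Every member was named, and of the partners those past 2-fold and the most abundant of each role. AREG, EPGN, CDH1, CD44, L1CAM, TNFRSF1A, RHBDF1, TSPAN17, and partners named at 0 were added after their values were seen. So were the split of ADAMs by active site, the genes beside the cluster, the motifs and the windows printed. The split of shed substrates into EGF receptor ligands and others was not in the plan. Simulated counts with Poisson error alone were used to check the 2-fold rule, for 8548 genes of at least 5 RPKM in the mock library and 2000 bases each: it called 100 of 100 genes raised 4-fold, 100 of 100 lowered as much, and 0 of 8348 unchanged. At such levels, with 4-fold changes and counting error alone, this outcome was all but fixed in advance. The simulation says nothing of genes near the cut, such as MMP2 at 2.44-fold, of lower genes or of spread between cultures. Alternatives changed the pseudocount, floor, scaling, filter, fold, copy rows or neighbour shift; those of the partner list were added after the data were seen. Software was matplotlib 3.10.9, scipy 1.17.1, pandas 2.3.3, numpy 2.4.6 and Python 3.11.15.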

Additional observations from a re-analysis of the deposited data

How the results depend on the processing

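No paired analysis was possible because each group had a single library, which also left none to omit. TIMP3 was called higher and ADAMTS1 and MMP2 lower under every alternative run. A pseudocount of 0.1 RPKM added ADAM23 to the lower members, 3 in all. With genes listed at 0 set to 0 RPKM, 2 members were higher, with MMP11 added, and 3 lower, with ADAM11 added; a floor of 0 enlarges such ratios by construction. At 1.5-fold, 4 were higher and 6 lower of the 23 listed members, beside 11.3% and 11.5% of all 12857 measured genes. More calls at a smaller fold again follow by construction. The median log2 ratio of membrane-anchored proteases, −0.10, was 0.18 among the 7 members that averaged 5 RPKM or more, and 0.01 once the neighbour shift was taken away, so its sign differed between settings. That of secreted proteases, −0.68, was −1.16 among the 3 left by that filter, which ADAMTS1 passed only through its level in the mock library. That of inhibitors, 0.16, was 0.43 with the neighbour shift removed. Of the 33 listed partners, 5 were higher and 0 lower. With the neighbour shift removed 2 were higher, and CD44 made 1 lower with a pseudocount of 0.1 RPKM or trimmed mean scaling. At 1.5-fold 8 were higher and 3 lower, beside the same 11.3% and 11.5% of all measured genes. Among 138 alternative log2 ratios of single members, 127 stayed within counting error and 11 moved further, and 0 called values turned their sign. Many of the 138 could hardly move, so this count says little about robustness. The choice among copy rows left every listed member unchanged, and the scalings moved all ratios by about 0.01. Depth limits members near 1 RPKM, such as MMP23B, with about 33 reads in the RHCG library and 30 in the mock library, and 1 library per group leaves differences between cultures inside every value.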

Other observations

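Related proteins outside the named families were also measured. BMP1, the astacin metalloproteinase that cuts the carboxyl ends of procollagens, was at 9.69 RPKM in the RHCG library and 16.5 RPKM in the mock library, a log2 ratio of −0.71. The other 5 astacins on the list (TLL1, TLL2, MEP1A, MEP1B and ASTL) were at 0 in both libraries. Of the ADAMTS-like proteins, which resemble ADAMTS enzymes but have no protease domain, 3 of 6 were listed. ADAMTSL3 was higher by the 2-fold rule, at 7.68 RPKM in the RHCG library and 3.24 RPKM in the mock library. ADAMTSL4 was at 9.69 RPKM in the RHCG library and 6.16 RPKM in the mock library, and ADAMTSL5 at 8.87 RPKM in the RHCG library and 8.22 RPKM in the mock library. Their log2 ratios were 1.03, 0.58 and 0.10, and the counting interval of the ratio of ADAMTSL5 (0.9502 to 1.22) included 1.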
